A study of Arabidopsis thaliana with 24 samples.

Results

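The combined response to sucrose and light was measured in shoots of sdg8-5, an Arabidopsis thaliana line in which a fast-neutron deletion removed SDG8, a histone H3 lysine methyltransferase. It is the contrast between the 3 sdg8-5 arrays given both sucrose and light (+C+L) and the 3 sdg8-5 arrays given neither (-C-L), 6 of the 24 arrays of the series, chosen by their titles. The +C+L plants received 1% sucrose and 70 µE of light for 2 h, and the -C-L plants stayed for those 2 h in medium without sucrose and in the dark. Both groups were 3 weeks old, had been grown hydroponically in long days with sucrose and nitrate, and had then spent 24 h in the dark without sucrose. The other sdg8-5 arrays received sucrose in the dark (+C-L, 3 arrays) or light without sucrose (-C+L, 3 arrays), and WT plants received the same 4 treatments (12 arrays).

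sdg8-5 stands for 1 deletion line. Its deletion also takes in the SDG8 promoter and part of the neighboring gene, and the mutant and the WT line from which it came both carry a transgene that couples the ASN1 promoter to a hygromycin resistance gene. No probe set of the array was annotated to SDG8 alone, so the genotype was not checked by that transcript. The labels call the 3 arrays of each group biological replicates and do not say how many plants each pooled, so the p-values below measure the spread between these samples. A change in RNA per cell and a change in the share of cells of a kind cannot be told apart in whole shoots.

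Plants kept in the dark without sugar run out of starch and turn to protein and amino acids as respiratory fuel, a state in which the SnRK1 kinase is active and genes of autophagy and of branched-chain amino acid breakdown are expressed. Sugar represses those genes and favors growth genes such as those for ribosome assembly. Light acts through photoreceptors on transcription factors of the HY5 family, and it also restores photosynthesis, which yields sugar and oxygen. In these shoots, among the gene lists examined, the lowest medians under +C+L were those of starvation genes, amino acid breakdown genes and genes of the hypoxia list, and rises were seen in genes of light signaling, flavonoid glycosylation, chaperones and ribosome assembly.

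Values are MAS5 intensities, on which the trimmed mean of each array is 500, and a difference of 1 on the log2 scale is a doubling. The leaf marker tested, RCA (Rubisco activase), had intensities of 9905, 10162 and 10390 in +C+L and 4946, 5613 and 5937 in -C-L. Of the root markers, PYK10 averaged 6564 in +C+L and 5323 in -C-L, while EXPA7 averaged 81.9 and AT5G66390 averaged 11.2 in +C+L, against 35.7 and 18.2 in -C-L. Of the flower markers, AMS read 15.3, 16.8 and 20.1 in +C+L and 3.46, 33.8 and 2.68 in -C-L, and AT5G07230 averaged 10.8 in +C+L and 21.4 in -C-L. None of the 3 root and 2 flower markers tested passed the threshold in the combined response, and the rest of those lists had no named probe set.

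The signal of the 25S rRNA control probe set moved with the treatment. It was 1196, 498.1 and 837.1 in +C+L, against 13610, 15340 and 12290 in -C-L, a ratio of 16.3 between the -C-L and the +C+L means (two-sided exact permutation p = 0.1, the smallest that 3 arrays against 3 allow). It was 9258, 6030 and 6563 in +C-L and 1037, 8044 and 1091 in -C+L, and counts with this signal as a covariate are given beside the gene groups described. The median intensity was 208.3 to 223.3 in +C+L and 180.5 to 198.5 in -C-L, and the spike-in controls gave an exact permutation p of 0.5. Pairs of arrays correlated at 0.936 to 0.941 within +C+L and at 0.915 to 0.933 within -C-L on the log2 scale, against 0.88 to 0.894 between the groups.

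The combined treatment changed 2971 of 12431 genes at a false discovery rate (FDR, limma with Benjamini-Hochberg adjustment) under 0.05. Intensity was higher in +C+L than in -C-L for 1750 genes (14.1%) and lower for 1221 (9.82%). Among these, 866 (49.5%) of the genes that rose and 530 (43.4%) of those that fell changed more than 2-fold, and 59 and 31 changed by more than 3 on the log2 scale. The 3 +C+L arrays lay wholly above the 3 -C-L arrays for 2544 genes (20.5%) and wholly below for 1877 (15.1%), which includes 1685 of the genes that rose and 1180 of those that fell. The balance of directions rested on the scaling. Rises made up 58.9% of calls as deposited, 49.4% after quantile normalization (1411 higher and 1443 lower), and 38.8% after each array was centered on its median (1148 higher and 1809 lower, with the median gene at -0.15). With the 25S signal as a covariate, 291 genes were higher and 228 lower.

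**Figure D1:**
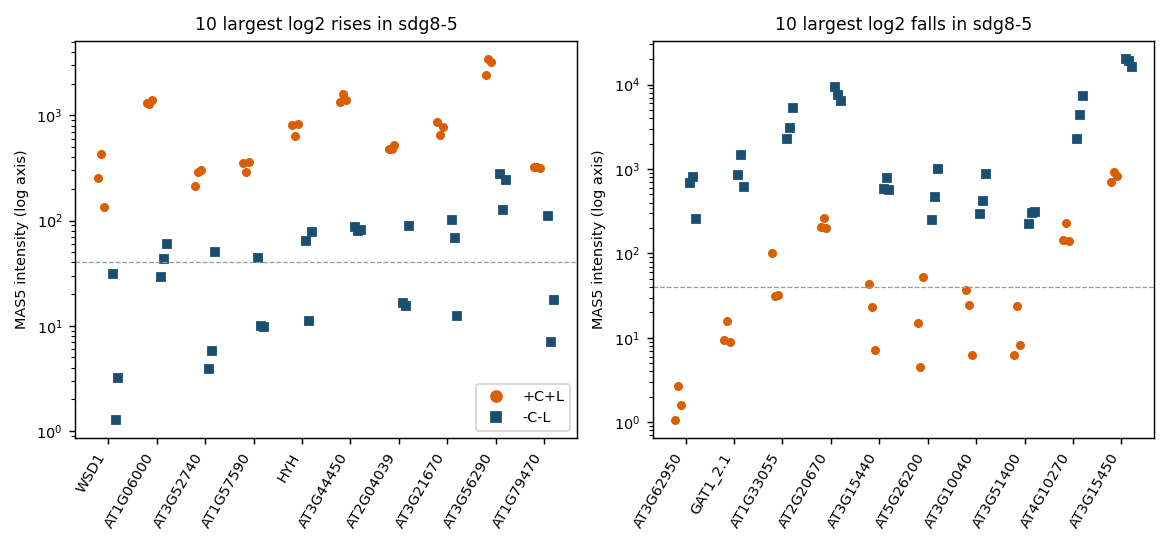
MAS5 intensity (log axis) on each array of the 10 genes with the largest log2 rise (left) and the 10 with the largest log2 fall (right) among genes past the threshold with a group mean of at least 200, +C+L (circles) left of -C-L (squares). The dashed line marks the intensity of 40 that a probe set had to reach on at least 1 array. The rule took only genes whose +C+L and -C-L arrays did not overlap, and many of the low values lay under the line.

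Genes of dark and carbon starvation fell together. Of 11 members tested, 10 fell and 0 rose, with a median log2 change of -3.56 against 0.05 over all genes. The arrays of the 2 groups did not overlap in any of the 11, while 15.1% of all genes lay wholly lower in +C+L. For this list and those below, the shares called over all genes were 14.1% higher and 9.82% lower. The lists and their members were chosen with earlier results of these data known. Their counts beside these shares are therefore a description and not a test. GAT1_2.1, annotated as a glutamine amidotransferase, had intensities of 9.37, 15.9 and 8.96 in +C+L and 856, 1446 and 615 in -C-L. The difference was -6.37 on the log2 scale (SE 0.86, limma FDR 2.14e-05), and -4.51 when values under 40 were set to 40, since the +C+L arrays lay near the low end of the scale. AT3G15450 was among the brightest probe sets in -C-L, at 20217, 18945 and 16043, and stood at 700, 916 and 820 in +C+L (log2 change -4.50, SE 0.23, limma FDR 9.93e-10). Both genes were named for large changes past the threshold, so a change beyond the spread of their arrays was fixed by that choice.

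AT3G15440, the locus next to AT3G15450 on chromosome 3, averaged 24.8 ± 18.4 in +C+L and 638 ± 117 in -C-L (SD, n = 3 arrays each). AT2G20670 read 206, 262 and 198 in +C+L, against 9441, 7592 and 6385 in -C-L, a change of -5.13 (SE 0.39). AKINBETA1, a beta subunit of the SnRK1 kinase complex, read 309, 316 and 380 in +C+L and 3919, 4350 and 3586 in -C-L (log2 change -3.56, SE 0.21, limma FDR 2.08e-09). ETFQO, the oxidoreductase that passes electrons from amino acid breakdown to ubiquinone, fell to 574 ± 91.2 in +C+L, against 1614 ± 106 in -C-L (SD, n = 3 arrays each), and ATG8E, a ubiquitin-like protein of autophagosomes, fell by 2.53. D2HGDH, a dehydrogenase of lysine breakdown, differed by -0.46 and was the 1 member that did not pass. With the 25S signal as a covariate, 6 of the 11 genes of the dark and carbon starvation list fell and the median was -3.21.

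The 2 treatments given alone moved most of these genes as well. Sucrose alone lowered 9 of 11 members (over all genes it lowered 5.04% and raised 7.6%), and light alone lowered 9 (7.51% lower and 9.77% higher over all genes), with medians of -2.3 and -1.28. These contrasts use the same -C-L arrays as the combined response, so their values are given side by side and are not independent of it. GAT1_2.1 differed by -6.37 with both treatments, by -6.12 with sucrose alone and by -3.32 with light alone. AT3G15450 differed by -4.50 with both, by -2.26 with sucrose alone and by -0.52 with light alone, the last short of the threshold (limma FDR 0.14).

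AT3G62950, a member of the CC-type glutaredoxin list, showed the largest log2 fall among the genes named. Its intensities were 1.06, 2.69 and 1.60 in +C+L, against 678, 808 and 255 in -C-L. They were at most 7.44 in +C-L and 183, 311 and 161 in -C+L, so the arrays with sucrose were low in light and in dark. The fitted change was -8.29 (SE 0.74, limma FDR 2.27e-07), but -3.70 when values under 40 were set to 40. Across the 16 glutaredoxins of that list the response was mixed, with 3 higher, 3 lower and a median of -0.18. Over all genes 14.1% were higher and 9.82% lower. AT2G30540 of the same list rose by 2.48. None of the CC-type glutaredoxins rose and 1 fell with the 25S covariate.

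Genes that break down branched-chain amino acids, lysine and methionine also fell, 6 of 9 tested, with none higher and a median of -1.27. MCCA, the biotinylated subunit of methylcrotonyl-CoA carboxylase in leucine breakdown, read 877, 838 and 1347 in +C+L and 6040, 7589 and 5597 in -C-L (log2 change -2.67, SE 0.34, limma FDR 1.01e-05). The partner subunit MCCB fell by 2.31 and IVD, the isovaleryl-CoA dehydrogenase one step upstream, fell by 2.53. MGL, a methionine gamma-lyase, fell by 1.83, ALDH6B2, which acts in valine breakdown, fell by 1.27, and AT4G33150, annotated as LKR/SDH of lysine breakdown, fell by 1.12. The 3 members that did not pass were AT2G26800 (-0.27), AT4G16800 (-0.08) and AT5G09300 (0.46).

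In this group sucrose alone, light alone and both together gave changes of like size. MCCA differed by -2.67 with both treatments, by -2.24 with sucrose alone and by -2.21 with light alone, and its +C-L arrays read 2350, 1396 and 736 and its -C+L arrays 1458, 1668 and 1071. Sucrose alone lowered 7 of 9 members and light alone lowered 6. The median of the sucrose by light interaction over the list was 1.02, that is, the combined fall was smaller than the sum of the falls for sucrose alone and light alone, though no member passed the test of that interaction. With the 25S covariate 2 of the 9 members of the branched-chain amino acid, lysine and proline breakdown list fell, and the median was -1.03.

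The hypoxia list holds genes that plants express when oxygen is low. Of 9 members tested, 7 fell and 1 rose under +C+L, with a median of -2.64. AT1G33055 read 101, 31.4 and 32.5 in +C+L and 2238, 3086 and 5275 in -C-L (log2 change -6.14, SE 0.61, limma FDR 6.88e-07). It read 5551, 4422 and 2909 in +C-L and 331, 190 and 151 in -C+L, so it was high in both dark groups and low in both light groups.

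AT3G10040, annotated as HYPOXIA RESPONSE ATTENUATOR1, showed the same order, with 36.5, 24.4 and 6.27 in +C+L and 297, 417 and 881 in -C-L. Its +C-L arrays, at 2035, 1655 and 1218, lay above the -C-L arrays, and its -C+L arrays stood at 32.9, 24.4 and 29.0. The combined change was -4.75 (SE 0.79, limma FDR 0.000181), light alone gave -4.06 and sucrose alone 1.74, short of the threshold (FDR 0.17). All +C+L and -C+L arrays of AT3G10040 lay under 40, so the sizes of its combined and light-alone changes are uncertain. Its combined call was lost with the 25S covariate (-5.36, limma FDR 0.0607). AT4G24110 and AT3G27220 fell by 2.77 and 2.71. AT5G39580 and AT4G27450 fell by 2.29 and 1.25, and AT5G10040, at -2.64, did not pass.

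Light alone lowered 6 of the 9 and raised none, whereas sucrose alone lowered 1 and raised none, with a median of 0.65, and the difference between these contrasts was not tested over the list. The list member that rose with both treatments was PDC2, a pyruvate decarboxylase of fermentation, at 1835, 2030 and 2236 in +C+L and 504, 775 and 2226 in -C-L, groups that overlapped (log2 change 1.09, limma FDR 0.045). AT1G19530 (-2.20) stands in both this list and the starvation list. In 7 of the 9 members the highest -C-L array was replicate 3, and with the 25S covariate 2 of the 9 in the hypoxia list fell and 0 rose, with a median of -2.62. AT4G10270, which is in no list, was like AT1G33055 low in both light groups and high in both dark groups. It read 144, 229 and 139 in +C+L, 126, 173 and 127 in -C+L, 8705, 9738 and 6852 in +C-L, and 2254, 4415 and 7332 in -C-L.

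**Figure D2:**
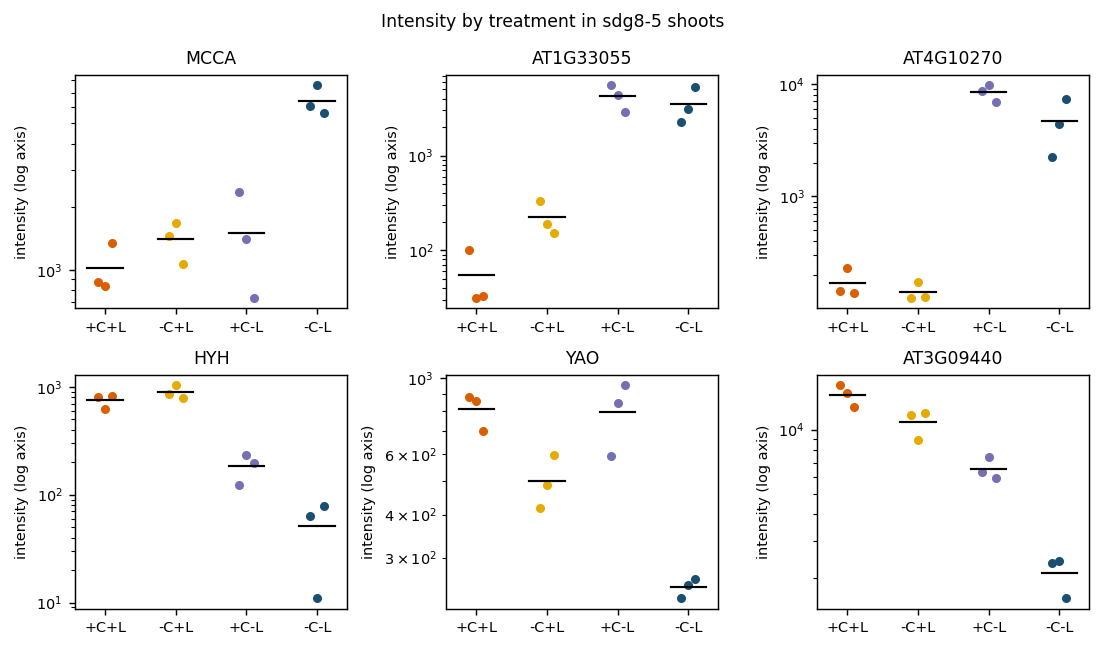
MAS5 intensity (log axis, own scale per panel) of 6 genes on the 3 sdg8-5 arrays of each treatment, with the bar at the mean. MCCA was low in each treated group, AT1G33055 and AT4G10270 were low in both groups with light, HYH was high in both groups with light, and YAO and AT3G09440 were higher in each treated group than in -C-L.

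The light signaling list had the highest median of the lists, 4.22, with 3 of 4 members higher. HYH, a bZIP transcription factor close to HY5, read 809, 629 and 829 in +C+L, against 63.9, 11.0 and 77.8 in -C-L (log2 change 4.31, SE 0.55, limma FDR 1.14e-05). It read 859, 1029 and 789 in -C+L and 122, 234 and 196 in +C-L, so light alone brought it to the level of both together and sucrose alone to a level between. AT3G44450 and AT3G52740 of the same list rose by 4.14 and 4.67, and AT1G18810 (-0.14) did not pass. With the 25S covariate 2 of the 4 members of the light signaling list rose. GI, a clock protein that is also part of the day-length pathway and the 1 circadian clock gene tested, rose by 1.24 (its call was lost when 25S entered the fit), with means of 1575 ± 274 in +C+L and 664 ± 86.9 in -C-L (SD, n = 3 arrays each).

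Of 3 members of the phenylpropanoid and flavonoid synthesis list tested, 2 rose, and 2 rose with the 25S covariate. UGT78D2, a flavonoid 3-O-glucosyltransferase, read 958, 934 and 1234 in +C+L and 208, 121 and 104 in -C-L (log2 change 2.90, SE 0.30, limma FDR 1.35e-06). UGT78D1, a flavonol 3-O-rhamnosyltransferase, rose by 2.74. Light alone raised UGT78D2 by 2.81 and UGT78D1 by 1.84. DFR, which leads to anthocyanins, differed by 0.29 and did not pass. AT1G06000, which is in no list, had the tightest of the large rises, at 1311, 1279 and 1383 in +C+L and 29.4, 42.9 and 59.3 in -C-L (log2 change 4.97, SE 0.29, limma FDR 2.08e-09), and light alone gave 4.23 and sucrose alone 2.09. WSD1, a wax ester synthase, had the largest fitted rise (5.62, limma FDR 0.000557), with 255, 429 and 135 in +C+L and 31.0, 1.27 and 3.18 in -C-L, and 2.62 when values under 40 were set to 40. The WSD1 call was lost without replicate set 2 (limma FDR 0.0852) and with the 25S covariate (limma FDR 0.203). It was also lost in an unmoderated model on linear intensities (FDR 0.0654).

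Genes of carbon fixation rose by less, and most photosystem genes did not pass the test. SBPASE and PRK, Calvin cycle enzymes that regenerate the acceptor of CO2, rose by 1.47 and 1.09, and RCA rose by 0.89 (SE 0.13, limma FDR 6.37e-05). These 3 of the 4 members tested also rose with light alone, while sucrose alone lowered PRK by 0.73. PRK read 5608, 6632 and 6105 in +C+L, 8165, 8355 and 7303 in -C+L, 1695, 1535 and 2001 in +C-L, and 2581, 3511 and 2624 in -C-L. The same 3 of 4 rose with the 25S covariate. Of 8 photosystem and light-harvesting genes tested, 1 rose (LHCB4.3, a minor antenna protein, by 1.33) and 1 fell, with a median of -0.09. Over all genes 14.1% rose and 9.82% fell. The 1 that fell, LHCB4.1 (-0.46), lost its call without any of 5 of the 6 arrays (FDR 0.0743 to 0.232). Of 8 chlorophyll synthesis genes, CHLI2 rose by 0.64, and PORB and CHLM fell by 0.73 and 0.72, with a median of -0.07. The calls of CHLI2 and PORB were lost without some single arrays (FDR up to 0.0767 and 0.0921), and 0 rose and 3 fell after quantile normalization or median centering. For both of these lists few of the listed genes had a named probe set, 8 of 47 and 8 of 25. Only 1 photosystem and light-harvesting gene passed with the 25S covariate (higher), and 0 of the chlorophyll synthesis genes passed.

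The lists of genes that handle sugar held calls in both directions, beside 14.1% higher and 9.82% lower over all genes. Of 8 starch and sucrose genes tested, 3 rose, among them APL4 (0.93), whose call was lost without -C-L replicate 2 (FDR 0.117) or +C+L replicate 1 (FDR 0.0639), and 1 rose with the 25S covariate. APL3, a large subunit of the enzyme that makes ADP-glucose for starch, read 850, 611 and 812 in +C+L and 60.9, 146 and 111 in -C-L (log2 change 2.91, SE 0.35, limma FDR 6.92e-06). Sucrose alone gave 1.81 and light alone 1.13 for APL3. ATSPS4F, a sucrose-phosphate synthase, rose by 2.54 with both treatments, with 2.72 for light alone and -0.12 for sucrose alone, so its light-alone value was close to the combined one. Among 14 sugar transporters 3 rose and 2 fell, and the rises of TMT2 (0.76) and SWEET17 (1.25) were lost without some single arrays (FDR up to 0.122 and 0.0536). SWEET1, a glucose carrier, read 1652, 1430 and 951 in +C+L, against 450, 369 and 330 in -C-L (log2 change 1.79, limma FDR 1.3e-05), and TMT1, a vacuolar sugar carrier, fell by 0.55. With the 25S covariate 1 of the sugar transporters rose and 0 fell. Of 16 genes of glycolysis, the pentose phosphate path and the TCA cycle, 4 rose and 2 fell, among them AT1G20950 (1.69) and PPDK, pyruvate orthophosphate dikinase, which fell by 0.97. In that list (glycolysis, pentose phosphate and TCA) 1 rose and 0 fell with the 25S covariate.

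**Figure D3:**
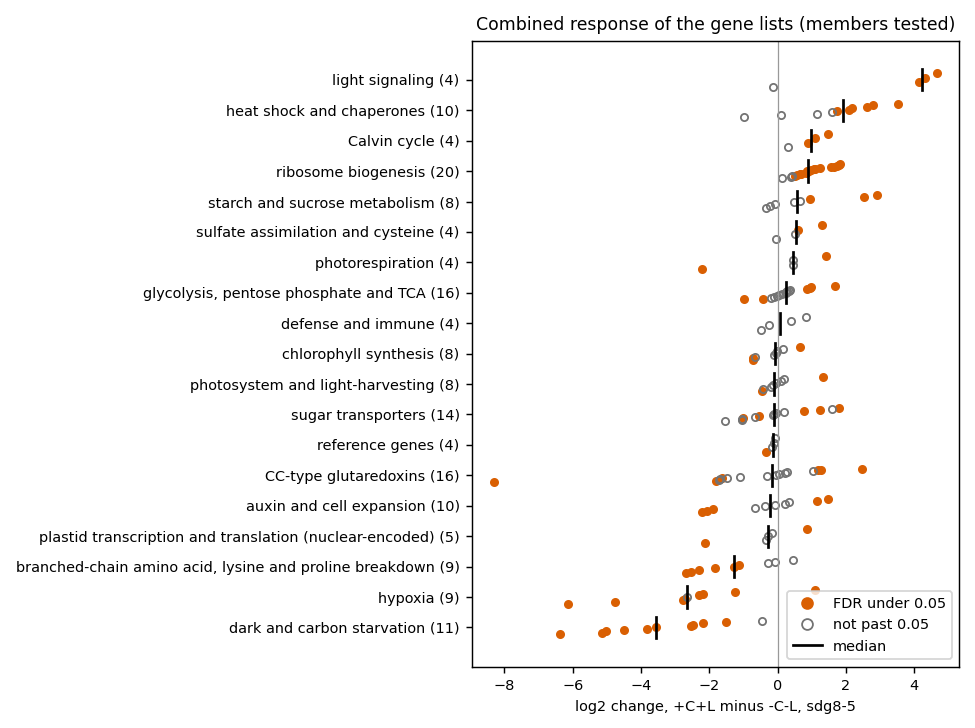
Log2 change (+C+L minus -C-L, sdg8-5) of each tested member of the gene lists, with the number tested in brackets. Filled points passed an FDR of 0.05, open points did not, and the bar is the median, which was lowest for dark and carbon starvation (-3.56) and highest for light signaling (4.22).

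Ribosome biogenesis genes rose as a broad group with modest changes. Of 20 tested, 17 rose and none fell, all 20 had a positive change, and the median was 0.90. YAO, a nucleolar protein, read 883, 859 and 700 in +C+L and 229, 249 and 260 in -C-L (log2 change 1.72, SE 0.16, limma FDR 4.49e-07). AT4G26600, AT3G10530 and AT4G04940 rose by 1.82, 1.78 and 1.64, and AT5G14520, annotated as PESCADILLO, rose by 0.52. Sucrose alone raised 16 of the 20 and light alone raised 7, with medians of 0.95 and 0.43. The number that rose was 16 after quantile normalization, 13 after median centering and 3 with the 25S covariate, under which the median was 0.84.

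Chaperone genes rose with either treatment. Of 10 members of the heat shock list tested, 6 rose with both treatments, and 6 each with sucrose alone and light alone, with medians of 1.91, 1.25 and 1.42. AT3G09440 read 16150, 14927 and 12842 in +C+L and 2361, 2394 and 1608 in -C-L (log2 change 2.80, SE 0.20, limma FDR 1.93e-08), one of the largest rises in linear intensity. Hsp70-2, a cytosolic chaperone, read 3465, 3797 and 3778 in +C+L and 743, 802 and 886 in -C-L (log2 change 2.19). AT5G48570, annotated as FKBP65 (ROF2), a peptidyl-prolyl isomerase, rose by 3.53. AT1G52560 was the member with a negative value (-0.98) and did not pass, and with the 25S covariate 1 of the 10 rose.

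Of 10 genes of the auxin and cell expansion list tested, 2 rose and 3 fell (14.1% and 9.82% over all genes), with a median of -0.23. EXPA8, a cell wall expansin, fell by 2.21 and WES1, which conjugates auxin to amino acids, fell by 2.07, while EXPA4 rose by 1.47. These rises depended on the fit, as 0 members of the list were higher with the compared arrays alone, without replicate set 2, or with the 25S covariate (2 lower, median 0.26), where EXPA4 had limma FDRs of 0.0505, 0.0576 and 0.134. Of the sugar-related bZIP factors, bZIP44 rose by 1.07 and BZIP53 fell by 0.80, and 0 of the 2 passed with the 25S covariate. AT3G21670, annotated as NPF6.4 of the nitrate and peptide transporter family, read 856, 656 and 776 in +C+L and 101, 68.9 and 12.3 in -C-L (log2 change 4.11, limma FDR 0.00014), and light alone gave 3.93. None of 4 defense genes and 2 nitrogen assimilation genes passed. Of 4 reference genes 1 passed, AT5G46630, at -0.34.

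The response of sdg8-5 was set against that of WT, which shares no array with it. In WT 1680 genes rose (13.5%) and 1359 fell (10.9%). Of the 1750 genes that rose in sdg8-5, 1233 (70.5%) also rose in WT, which is 73.4% of the WT rises, and of the 1221 that fell, 981 (80.3%) also fell in WT, which is 72.2% of the WT falls. No gene passed in opposite directions. Across the 12431 genes, which are not independent, the log2 changes of the 2 genotypes correlated at 0.614.

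The starvation, amino acid, hypoxia, ribosome and heat shock lists had medians of the same sign in WT. Starvation genes had a median of -3.56 in sdg8-5 and -3.96 in WT, amino acid breakdown -1.27 and -1.36, hypoxia -2.64 and -3.35, ribosome biogenesis 0.90 and 1.16, and heat shock 1.91 and 2.29. MCCA fell by 2.67 in sdg8-5 and by 3.38 in WT, where it read 554, 282 and 465 in +C+L and 5366, 3750 and 4066 in -C-L (difference between genotypes 0.71, SE 0.48). HYH rose by 4.31 in sdg8-5 and by 3.68 in WT (difference 0.62, SE 0.78). In the direct test of the difference between the genotypes, 0 of 12431 genes (0.0%) passed an FDR of 0.05 with limma, and 3 (0.0241%) passed 0.15. Over all 21490 probe sets, 1 passed 0.05, with a positive difference. An unadjusted p under 0.05 was reached by 592 genes, no more than the share of 0.05 that would reach it with no difference. An unmoderated model on linear intensities gave 15 genes at 0.05, and with the 25S covariate 0 genes passed 0.05 and 3 passed 0.15. With 3 arrays per group, a difference near its SE was not detectable.

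The 3 genes at the looser threshold were GH9B8, AT1G71080 and AT1G02813. GH9B8, a glycosyl hydrolase of the endoglucanase family, read 517, 571 and 592 in sdg8-5 +C+L and 60.8, 134 and 67.8 in sdg8-5 -C-L, against 646, 547 and 598 in WT +C+L and 261, 366 and 318 in WT -C-L. It rose by 2.77 in sdg8-5 and by 0.93 in WT (difference 1.83, SE 0.33, limma FDR 0.147), and the genotypes lay apart in -C-L and overlapped in +C+L. AT1G71080 read 490, 525 and 561 in sdg8-5 +C+L and 600, 614 and 846 in sdg8-5 -C-L, against 324, 323 and 337 in WT +C+L and 884, 798 and 833 in WT -C-L. Its change was -0.37 in sdg8-5, a call that was lost without -C-L replicate 3 (FDR 0.208), +C+L replicate 1 (0.119) or +C+L replicate 2 (0.0781), and -1.35 in WT (difference 0.98, SE 0.17, limma FDR 0.147). AT1G02813 read 69.9, 54.8 and 26.6 in sdg8-5 +C+L and 4.58, 8.27 and 1.47 in sdg8-5 -C-L, mostly under the intensity of 40 or close to it.

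**Figure D4:**
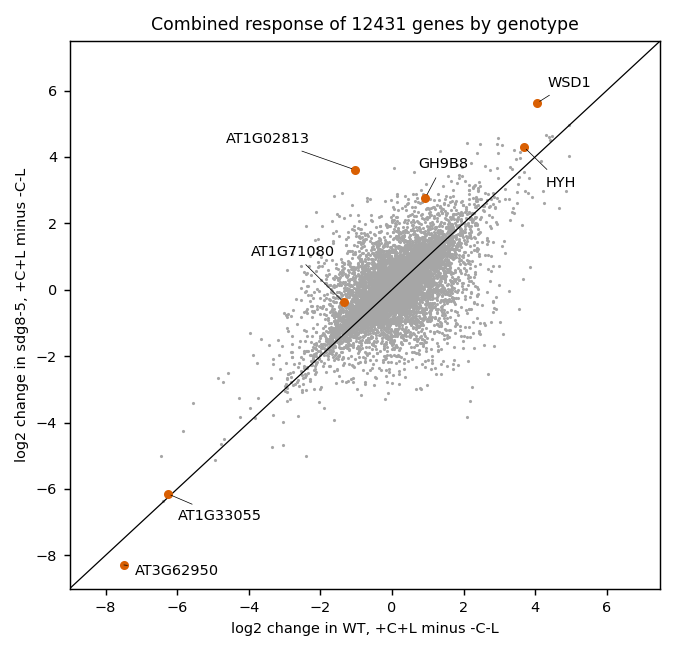
Log2 change (+C+L minus -C-L) of each of 12431 genes in sdg8-5 (vertical axis) against WT (horizontal axis), with the line of equal change. The points lie along the line (correlation 0.614 across genes), and the 3 genes that passed an FDR of 0.15 for the difference (GH9B8, AT1G71080, AT1G02813) are named with 4 of the largest changes.

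Whether sucrose and light add on the log2 scale was tested as an interaction in sdg8-5. At an FDR of 0.05, 6 genes (0.0483%) passed, 5 with a combined change below the sum of the changes for sucrose alone and light alone and 1 above it, and 1089 genes had an unadjusted p under 0.05. Over all 21490 probe sets, 11 passed below the sum and 7 above it. The count of genes was 1 to 43 when any single array was left out, the 43 without the +C-L replicate 1 array and the 1 without the +C-L or the -C+L replicate 3 array, and 0 to 1 without a replicate set.

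In 4 of these genes each treatment alone gave a change about as large as, or larger than, both together. IAGLU, an indole-3-acetate glucosyltransferase, read 717, 650 and 902 in +C+L, 1296, 875 and 742 in -C+L, 1113, 1280 and 1301 in +C-L, and 369, 290 and 291 in -C-L (interaction -2.30, limma FDR 0.034). GH9B8 rose by 2.77 with both treatments, by 2.21 with light alone and by 2.44 with sucrose alone (interaction -1.88, limma FDR 0.035). AT2G39980 read 391, 670 and 914 in +C+L, against 247, 229 and 219 in -C-L, and rose by 1.42 with both, 2.02 with light alone and 2.56 with sucrose alone (interaction -3.16, limma FDR 0.018). AT1G76590 fell by 2.58 with both, by 2.06 with light alone and by 2.45 with sucrose alone (interaction 1.94, limma FDR 0.037).

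The other 2 genes had their lowest values with both treatments. AT3G12150 read 30.4, 26.0 and 35.1 in +C+L, 161, 220 and 215 in -C+L, 144, 111 and 147 in +C-L, and 208, 173 and 272 in -C-L. It fell by 2.82 with both treatments and by 0.69 with sucrose alone, and light alone gave -0.12, short of the threshold (interaction -2.01, limma FDR 0.0092). AT5G62280 read 24.2, 11.9 and 8.01 in +C+L, 77.1, 69.8 and 76.3 in -C+L, 296, 279 and 395 in +C-L, and 113, 97.5 and 76.2 in -C-L. Sucrose in the dark raised it by 1.76, light alone gave -0.34, and both together lowered it by 2.83 (interaction -4.25, limma FDR 0.018), with the +C+L arrays below an intensity of 40. When values under 40 were set to 40, the combined changes were -1.24 for AT5G62280 and -2.42 for AT3G12150, and both interaction calls were kept.

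**Figure D5:**
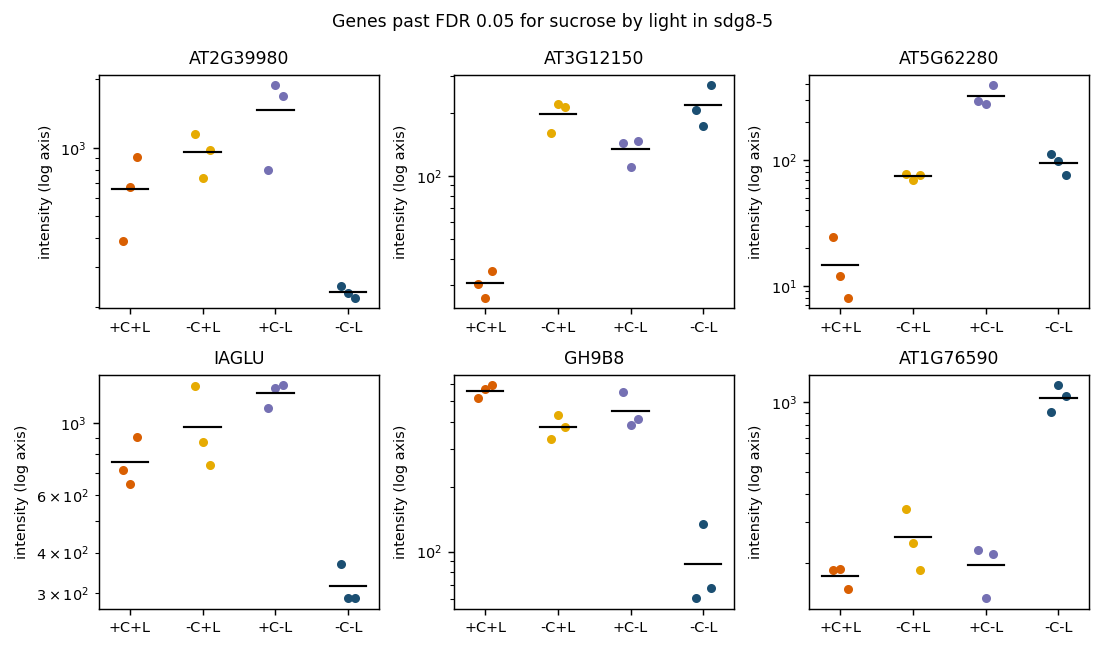
MAS5 intensity (log axis, own scale per panel) of the 6 genes past an FDR of 0.05 for the sucrose by light interaction, on the 3 sdg8-5 arrays of each treatment, with the bar at the mean. AT2G39980, IAGLU and GH9B8 were higher, and AT1G76590 lower, in each treated group than in -C-L, while AT3G12150 and AT5G62280 were lowest in +C+L.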

How the data were processed

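Affymetrix ATH1 arrays were hybridized with labeled RNA from shoots. The authors had turned the raw array files into MAS5 intensities in R and deposited them unlogged; the MAS5 version is not given in the sources used here. Of 22810 probe sets, 21552 had a value of 40 or more somewhere among the arrays, the filter of the study's methods, and their log2 values were used. The study's analysis of variance was fitted as 8 condition means over 24 arrays with limma 3.58.1 in R 4.3.3, with Benjamini-Hochberg FDRs taken over all of these probe sets. Fits were tested on simulated data. Array number limits the precision, with 16 residual degrees of freedom.

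Probe sets were named through the platform annotation: 13513 had 1 gene, 503 several and 8794 none, and 13436 matched TAIR10.1. Genes on several probe sets were read from the brightest, leaving 12431 genes.

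The members and the 30 gene lists (748 genes, 186 tested) were chosen with earlier results of these data known. Genes named were the 10 largest log2 rises and falls past the threshold with non-overlapping arrays and a mean of at least 200, the 5 largest linear changes each way, up to 4 called members of each list, and the 8 lowest p-values for each interaction among genes with a mean of at least 100. Other list members and AT1G02813 were named after their values were seen. Filters, pseudocount, normalization, spread, blocks, covariates and omitted arrays were varied; setting values under 40 to 40 was added after seeing the data. No list member was tested for trehalose phosphate (17 listed).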

Additional observations from a re-analysis of the deposited data

Results flagged for a closer look

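The sucrose by light interaction in sdg8-5 differed from 0 past an FDR of 0.05 (limma) for 6 genes, which means that the effect of sucrose differed between light and dark by a test of that difference. The interaction was -4.25 for AT5G62280, -3.16 for AT2G39980, -2.30 for IAGLU, -2.01 for AT3G12150 and -1.88 for GH9B8, and 1.94 for AT1G76590. The +C+L arrays of AT5G62280 and AT3G12150 lay under an intensity of 40, which makes the size of these 2 values uncertain. The combined response differed between sdg8-5 and WT, by the test of that difference at the FDR of 0.15, for AT1G02813 (4.64), GH9B8 (1.83) and AT1G71080 (0.98). AT1G02813 changed by 3.61 in sdg8-5 and by -1.03 in WT at intensities that were mostly near or under 40, and its sdg8-5 change was 0.42 when values under 40 were set to 40. GH9B8 is in both groups of results, but the 2 tests share the sdg8-5 +C+L and -C-L arrays and are not independent. With 3 arrays per group, no group was large enough to be searched for single outlying arrays.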

How the results depend on the processing

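Counts for the combined response in sdg8-5 (1750 genes higher and 1221 lower, 3437 and 2230 probe sets) moved by over 1.5 times with the 25S signal as a covariate (291 and 228 genes, 640 and 441 probe sets), with a fit to the 6 compared arrays alone (1034 and 750 genes, 2042 and 1342 probe sets), which has fewer samples, and with median centering (1148 genes and 2261 probe sets higher). Without a replicate set they were 815 to 1250 genes higher and 613 to 845 lower (1605 to 2410 and 1098 to 1535 probe sets), fewest without replicate set 2. Without a single array they were 1366 to 1663 and 1040 to 1096 genes (2745 to 3225 and 1872 to 1986 probe sets). Of 94 named genes past the threshold, 52 lost the call with the 25S covariate, 14 with the compared arrays alone, 6 each with quantile normalization and median centering, 9, 22 and 11 without replicate sets 1, 2 and 3, and 12 without at least 1 of the 6 arrays (APL4, AT1G71080, AT2G41090, AT5G41670, CHLI2, IAA29, LHCB4.1, PORB, PRL, SWEET17, TMT2 and Z-ISO). AT2G41090 reversed with the 25S covariate (-0.032, limma FDR 0.978, against 0.56). The 25S signal did not overlap between the compared groups and widens the SE, so a call can be lost without a smaller estimate. Estimates of the lost calls moved both ways. AT2G39980 lost its call at a smaller estimate (0.654, limma FDR 0.678, against 1.42), and AT3G21670 lost its call at 4.46 (limma FDR 0.0645), above its estimate in the main fit. Other causes were not tested.

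Genes past 0.15 for the difference between genotypes numbered 3, but 0 with 16 added before the log, 1 with quantile normalization, median centering or the compared arrays alone, 5 with values under 40 set to 40, 47 with an unmoderated model on linear intensities, 4 to 6 without a replicate set and 0 to 14 without 1 array. At 0.05 the count of 0 became 1 with a trended, robust prior and 15 on linear intensities, and was 0 to 1 and 0 to 4 under the 2 kinds of omission (14 and 4 without sdg8-5 -C-L replicate 3). The 6 interaction genes became 20 with a minimum of 100 on 3 arrays, 1 with the compared arrays alone, 26 with the trended prior, 83 on linear intensities, 10 with bioC groups as a block, 10 with a spike-in covariate, 24 with values under 40 set to 40, 0 to 1 without a replicate set and 1 to 43 without 1 array.

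Same-numbered +C+L and -C-L arrays deviated together only weakly (correlations 0.112, 0.00587 and 0.0883 for replicates 1, 2 and 3). Arrays of different number gave -0.0992 to 0.00964. The samples share a number, and no pairing is known. The bioC control signal, however, split the arrays by number. All replicate 1 arrays and the WT replicate 2 arrays were in the lower bioC group. All replicate 3 arrays and the mutant replicate 2 arrays were in the higher group. Replicate number was thus tied to this split, and within replicate 2 so was genotype. Whether the split reflects a batch was not tested. With replicate number as a block, 1813 genes were higher and 1283 lower, none of the 94 named combined-response calls was lost, AT1G76590 lost its interaction call (limma FDR 0.0673) and AT4G13990 gained 1 (0.0433), and 1 gene passed 0.15 for the difference between genotypes. Intensities under 40 limit folds of dim genes.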

Other observations

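Symbol families that were picked after their values were seen gave further changes in sdg8-5, as a description only. Of 7 ATG8 genes, which encode the ubiquitin-like coat of autophagosomes, 4 fell in sdg8-5 and 6 in WT, with a median of -0.86 in sdg8-5. ATG8E read 633, 522 and 802 in +C+L, against 4264, 3977 and 3025 in -C-L, ATG8H and ATG8F fell by 1.38 and 1.21, and ATG8G (-0.03) did not pass. The 4 calls were lost with the 25S signal as a covariate, under which the median was -0.63. All 3 genes of the plastid chaperonin beta family tested rose, and Cpn60beta2 read 4517, 3609 and 4846 in +C+L and 622, 560 and 420 in -C-L (log2 change 3.02, limma FDR 6.95e-08). With the 25S covariate 1 of the Cpn60 beta chaperonin genes rose and the median was 1.19. Of 14 genes named for organelle RNA processing (CRR, OTP and PPR), 6 rose and none fell, with a median of 1.01, and 2 rose with the 25S covariate. PPR596 rose by 2.33, and CRR21, an editing factor for chloroplast transcripts, averaged 198 in +C+L and 48.7 in -C-L (limma FDR 2.16e-05).

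Fes1 and Hop co-chaperones did not move as a block, since Fes1A and Hop3 rose by 2.15 and 2.60 and Fes1C fell by 1.89. In that family (Hsp70, Hop and Fes1 co-chaperones) 5 of 7 rose and 2 fell, and 2 rose and 1 fell with the 25S covariate. GTR1, a glucosinolate transporter, read 2979, 1967 and 1988 in +C+L and 402, 413 and 368 in -C-L (log2 change 2.52, limma FDR 7.64e-09), and 1 of the 3 glucosinolate and nitrate transporters rose with the 25S covariate. The cold-regulated genes COR15A and COR15B rose by 2.25 and 1.28, while COR27 fell by 3.79, and none of the COR cold-regulated genes passed with the 25S covariate. AT4G33560 had opposite calls for the treatments given alone, which share the -C-L arrays. It read 137, 172 and 258 in +C+L, 134, 123 and 110 in -C+L, 3860, 4557 and 2807 in +C-L and 561, 1318 and 2941 in -C-L, and so lay low in both groups with light.

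The remaining lists gave few calls, beside 14.1% higher and 9.82% lower over all genes. Of 4 photorespiration genes tested, AT1G11860 rose to a mean of 3157 in +C+L, against 1196 in -C-L, and AT1G80380 fell by 2.22, and of 5 nuclear genes for plastid transcription and translation, FUG1 rose by 0.85 and AT5G24490 fell by 2.14. Of 4 genes of sulfate assimilation and cysteine synthesis, AT1G04770 and APS3 rose by 1.31 and 0.59, and of 3 glucosinolate synthesis genes AT2G31790 rose by 1.64. Z-ISO of the carotenoid list (0.45) and PRL of the cell cycle list (1.46) rose, and both calls were lost without some single arrays. With the 25S covariate, calls in these 6 lists were kept in photorespiration (1 higher, 1 lower) and in plastid transcription and translation (nuclear-encoded) (1 lower).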
